A study of Mus musculus with 8 samples.

Results

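The LIM homeobox genes Lhx2, Lhx9, Lmx1b and Isl1, the LIM domain-binding cofactor genes Ldb1 and Ldb2 and the LIM-only gene Lmo4 were examined for SMAD4 binding in early mouse limb buds. These 7 genes were fixed by name, and every SMAD4 peak whose centre lay within 100 kb of the 5′ end of the gene record was counted (mm9, GENCODE vM1 annotation). The rule gave 10 of the 8258 peaks in the lists of both stages, 4 from the E9.5 list of 2073 and 6 from the E10.5 list of 6185. SMAD4 was mapped by chromatin immunoprecipitation and sequencing (ChIP-seq) in embryos homozygous for an endogenous Smad4 allele with a 3xFLAG epitope tag (Smad4Flag, strain NMRI), with the M2 antibody to the tag. The series holds 8 samples, which are 2 ChIP and 2 input samples per stage, and no other genotype or treatment. At E9.5 (dated E9.75 in the protocol) the tissue was forelimb buds dissected together with trunk, pooled from about 80 embryos per replicate. At E10.5 it was forelimb and hindlimb buds by the tissue label and the protocol, pooled from about 100 embryos per replicate, whereas the source name of every sample gives only forelimb bud. By the tissue label, tissue changed together with stage, and a difference between stages cannot be told apart from a difference between tissues. The lists hold 1 combined set of peaks per stage, so that no value has a replicate error and no test was run. They hold no expression values, and the dissected tissue could not be checked against marker genes.

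SMAD4 is the common partner of the receptor-activated SMAD proteins and enters chromatin with them when BMP or TGFβ ligands signal. LIM homeodomain proteins bind DNA through the homeodomain, whereas their LIM domains recruit LDB proteins. LDB1 and LDB2 dimerise and join LIM proteins into larger complexes. LMO4 consists of LIM domains without a DNA-binding domain and binds the same cofactors. In limb buds, Lmx1b specifies dorsal identity of the mesenchyme, Lhx2 and Lhx9 act in the distal mesenchyme during outgrowth, and Isl1 is needed for the start of hindlimb development.

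At E9.5, SMAD4 peaks lay within 100 kb of 3 of the 7 genes, namely Lmx1b with 2 peaks and Lhx9 and Isl1 with 1 each. The share over all 22350 protein-coding genes at this distance was 20.5%. At E10.5, peaks again lay near 3 of the 7 genes, namely Lmx1b with 3, Lhx2 with 2 and Ldb1 with 1, beside 52.9% of all protein-coding genes. Lmx1b had peaks at both stages, which is 1 of the 7 genes and close to the background of 14.7% of protein-coding genes. Ldb2 and Lmo4 had no peak at either stage, as did 41.2% of protein-coding genes. No base was shared between these 10 peaks and the list of the other stage, where overlap was uncommon for any peak (18.7% of the earlier and 6.26% of the later list). The sequences at 4 of these peaks, and at a distal peak pair downstream of Lhx2 that was shared by both stages, are given first.

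The sequences shown are the 300 bp around a peak centre, since the lists give no summits. Those within 100 kb are the 4 member windows that hold CAGACC, a longer form of the SMAD box, and the distal one is shown because it lies inside peaks of both stages. All are given 5′ to 3′ on the plus strand of mm9. Capitals mark the SMAD box, written CAGAC. Where the box lies on the other strand, the capitals read GTCTG. They also mark a palindrome made of a pair of SMAD half-sites, GTCTAGAC. The last sequence in capitals is the GC-rich SMAD motif, GGCGCC.
Isl1, E9.5 peak 15.66 kb downstream of the 5′ end, chr13:117084086-117084385: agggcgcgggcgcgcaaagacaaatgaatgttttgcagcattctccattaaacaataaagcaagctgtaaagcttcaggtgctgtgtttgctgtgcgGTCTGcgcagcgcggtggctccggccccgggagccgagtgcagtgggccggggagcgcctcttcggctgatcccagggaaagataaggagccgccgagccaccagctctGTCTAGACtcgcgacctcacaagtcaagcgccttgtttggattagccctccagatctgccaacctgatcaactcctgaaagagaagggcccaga
Lmx1b, E9.5 peak 38.72 kb upstream, chr2:33534600-33534899: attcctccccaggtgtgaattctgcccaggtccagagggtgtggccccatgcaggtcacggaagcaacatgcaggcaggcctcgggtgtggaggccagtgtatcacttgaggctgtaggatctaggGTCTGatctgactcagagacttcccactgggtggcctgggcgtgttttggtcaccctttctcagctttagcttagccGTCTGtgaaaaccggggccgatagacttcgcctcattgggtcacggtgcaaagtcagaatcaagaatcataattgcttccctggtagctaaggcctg
Lmx1b, E10.5 peak 50.06 kb upstream, chr2:33545941-33546240: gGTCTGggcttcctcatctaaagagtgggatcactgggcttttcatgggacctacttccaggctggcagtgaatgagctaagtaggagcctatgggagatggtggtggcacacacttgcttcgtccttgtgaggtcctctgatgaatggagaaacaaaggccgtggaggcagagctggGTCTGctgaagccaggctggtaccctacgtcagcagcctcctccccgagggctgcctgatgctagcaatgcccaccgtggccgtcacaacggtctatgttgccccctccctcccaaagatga
Lhx2, E10.5 peak 12.84 kb downstream of the 5′ end, chr2:38207487-38207786: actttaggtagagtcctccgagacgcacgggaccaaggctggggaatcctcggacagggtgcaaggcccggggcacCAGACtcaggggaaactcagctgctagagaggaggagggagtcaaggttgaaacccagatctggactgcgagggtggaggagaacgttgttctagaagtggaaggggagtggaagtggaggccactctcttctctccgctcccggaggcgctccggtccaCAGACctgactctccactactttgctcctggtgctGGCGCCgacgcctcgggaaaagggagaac
Lhx2, distal pair, centre of the better-scored E10.5 peak, chr2:38679490-38679789: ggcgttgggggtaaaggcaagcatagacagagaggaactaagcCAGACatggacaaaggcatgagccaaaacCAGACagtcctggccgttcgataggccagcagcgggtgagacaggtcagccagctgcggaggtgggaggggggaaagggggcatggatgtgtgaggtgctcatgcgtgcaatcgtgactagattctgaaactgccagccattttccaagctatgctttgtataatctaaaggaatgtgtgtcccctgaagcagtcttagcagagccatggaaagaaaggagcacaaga

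In the Isl1 sequence, a SMAD box lay 50 bp to the left of the peak centre and the palindrome GTCTAGAC 61 bp to the right. That SMAD box was followed by a further C on its own strand, which makes it a CAGACC. This longer form was searched separately and contains the shorter one. The upstream E9.5 sequence of Lmx1b held a CAGACC 21 bp to the left of the centre and a second SMAD box 56 bp to the right. In the E10.5 sequence of Lmx1b both SMAD boxes were CAGACC, 146 bp to the left and 31 bp to the right of the centre. The Lhx2 sequence held a SMAD box 71 bp to the left, a CAGACC 89 bp to the right and GGCGCC 125 bp to the right of the centre. The distal Lhx2 sequence held SMAD boxes 104 and 75 bp to the left of the centre of the E10.5 peak. The 300 bp around the centre of the overlapping E9.5 peak (chr2:38678975-38679274) held no SMAD box, although that whole peak held 5.

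The value deposited with each peak is a score that the lists do not name. A higher score was read as a better peak, and peaks were placed by rank within their list. Raw scores of both lists were used side by side for a cut at 100, for naming the best-scored member peak and in the figures. The scores of the E9.5 list had a median of 56.3 (quartiles 50.84 and 68.45) and the scores of the E10.5 list a median of 59.75 (quartiles 52.41 and 73.46). Peaks were wider at E10.5, with a median of 2552 bp over the list against 1244 bp at E9.5. The read depth of the libraries is unknown, and a gene without a peak was not shown to be unbound.

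**Figure D1:**
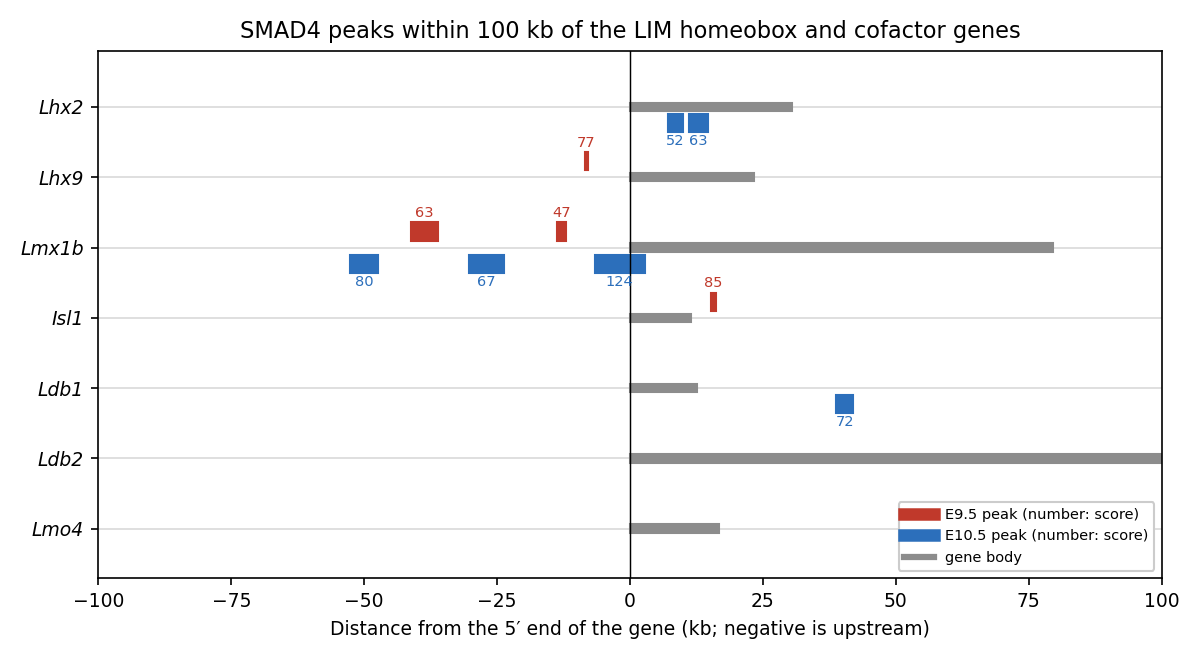
Positions of the SMAD4 peaks within 100 kb of the 5′ ends of the 7 genes, in kb with upstream negative, drawn to scale, with the rounded score beside each peak. Red bars above the line are E9.5 peaks, blue bars below it E10.5 peaks and grey bars the gene bodies; Lmx1b has 5 peaks, Lhx2 has 2, Lhx9, Isl1 and Ldb1 have 1 each, and Ldb2 and Lmo4 have none.

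Lmx1b (chr2:33416485-33496031, minus strand) had the largest number of peaks among the 7 genes. Its 2 E9.5 peaks put it among the 3.21% of protein-coding genes with 2 or more E9.5 peaks within 100 kb, and its 3 E10.5 peaks among the 12.4% with 3 or more. Both counts were reached by 0.837% of protein-coding genes, among them the related cofactor gene Ssbp4, which had the same 2 and 3 peaks. No other protein-coding gene started within 100 kb of Lmx1b, and Lmx1b was the nearest protein-coding gene for all 5 peaks.

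The best-scored of the 10 peaks was the E10.5 peak across the annotated 5′ end of Lmx1b (chr2:33493308-33502609), with a score of 123.99 and rank 217 of 6185. No other of the 10 peaks had a score of 100 or more. At 9302 bp it was also the widest, and 1.29% of the E10.5 peaks were as wide. It ran from 2.72 kb inside the gene to 6.58 kb upstream of the 5′ end. The annotated record of Lmx1b may start downstream of its true promoter, so its distances are given relative to the record only. Its centre lay 1.93 kb upstream, in an exon of the long noncoding RNA gene C130021I20Rik on the opposite strand. The centre window had a GC content of 70.7%, a level that 14.1% of the E10.5 windows reached.

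The second E10.5 peak of Lmx1b (chr2:33519762-33526375) was centred 27.04 kb upstream. Its width was 6614 bp, its score 66.6 and its rank 2169. The third (chr2:33543479-33548701) was centred 50.06 kb upstream, with 5223 bp, a score of 79.62 and rank 1178. Both were intergenic, and both lay in the better-scored part of the list above its median.

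The nearer E9.5 peak of Lmx1b (chr2:33508125-33509702) was centred 12.88 kb upstream, 0.60 kb from the start of the pseudogene Gm13529. With a score of 46.71 and rank 1722 of 2073 it was the lowest-scored of the 4 E9.5 peaks and fell below the median of its list. The other (chr2:33532201-33537298) was centred 38.72 kb upstream and had a score of 63.43 and rank 654. Its width of 5098 bp was reached by 1.21% of the E9.5 peaks. It held 27 SMAD boxes in all, or 5.30 per kb, a density that 11.9% of the E9.5 peaks reached.

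From the 5′ end outwards, the 5 Lmx1b peaks alternated between the stages in the order E10.5, E9.5, E10.5, E9.5 and E10.5. The stretches between neighbouring peaks measured 5.52, 10.06, 5.82 and 6.18 kb, and the centres were 10.96, 14.15, 11.68 and 11.34 kb apart. Together the peaks spanned 55.4 kb, of which E9.5 peaks covered 6.68 kb and E10.5 peaks 21.1 kb. The E9.5 and E10.5 peaks of Lmx1b lay in the same upstream interval without sharing a base. Over the lists, too, most peaks had no overlap, the exceptions being 18.7% (E9.5) and 6.26% (E10.5). When the E10.5 list was shortened to its 2073 best-scored peaks, the length of the E9.5 list, the middle E10.5 peak was lost and the stages no longer alternated throughout.

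**Figure D2:**
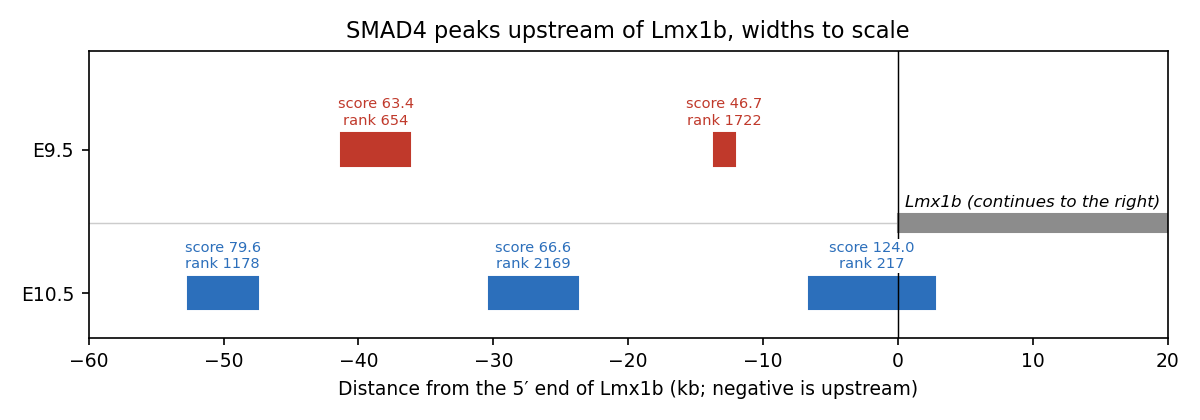
The 5 SMAD4 peaks at Lmx1b, drawn to scale by distance from the 5′ end in kb with upstream negative, each with its score and its rank within its list. E9.5 peaks (red, upper row) and E10.5 peaks (blue, lower row) alternate over 55.4 kb, and the E10.5 peak with rank 217 lies across the 5′ end of the gene (grey bar).

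Lhx2 (chr2:38194801-38225253, plus strand) had 2 peaks at E10.5, both inside the gene, and none within 100 kb at E9.5. The first (chr2:38201906-38204800, 2895 bp) was centred 8.55 kb downstream of the 5′ end in an intron. Its score of 51.52 and rank 4893 of 6185 were the lowest of the 6 E10.5 peaks. Its centre window was the poorest in GC among the 10 peaks, at 43.7%, and 97.4% of the E10.5 windows were at or above that level. The second (chr2:38205789-38209483, 3695 bp) was centred 12.84 kb downstream, also in an intron, with a score of 62.65 and rank 2679. Its centre lay 0.42 kb upstream of the start of an internal Lhx2 transcript, and the peak covered that start. This peak held 10 SMAD boxes and 6 GGCGCC sequences. From the second peak to the nearest E9.5 peak there were 468.83 kb between edges. Neither Lhx2 peak was among the 2073 best-scored E10.5 peaks, so Lhx2 had no peak in a list as long as that of E9.5.

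Lhx9 (chr1:140721763-140745153, minus strand) had 1 peak, at E9.5 (chr1:140753221-140753696), centred 8.31 kb upstream. It scored 77.36, which gave rank 371 of 2073, in the top 17.9% of its list. At 476 bp it was the narrowest of the 10 peaks, and 97.0% of the E9.5 peaks were at least as wide. Its centre lay 0.03 kb from the start of the protein-coding gene 2310009B15Rik, so that the peak sat on the promoter of a neighbour and not on that of Lhx9. No SMAD box was found anywhere in it, unlike in the other 9 peaks. The centre window held 1 GGCGCC and had a GC content of 63.7%.

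Isl1 (chr13:117088478-117099896, minus strand) likewise had a peak at E9.5 only (chr13:117083729-117084741, 1013 bp). The peak was centred 15.66 kb downstream of the 5′ end, beyond the 3′ end of the 11.42 kb gene, in intergenic sequence. Its score of 84.63 and rank 298, in the top 14.4%, were the best among the 4 E9.5 peaks. Isl1 was the nearest protein-coding gene, and no other protein-coding gene started within 100 kb of it. The palindrome GTCTAGAC in its centre window occurred in 25 of the 2073 E9.5 windows, or 1.21%. At E10.5 the nearest peak was 714.07 kb upstream of Isl1 (chr13:117812961-117814963, score 99.94), at the start of Parp8.

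Of the cofactor genes, Ldb1 (chr19:46107083-46119704, minus strand) had 1 peak, at E10.5 (chr19:46077828-46080896, 3069 bp). It was centred 40.34 kb downstream of the 5′ end, beyond the gene, with a score of 72.15 and rank 1635 of 6185. The centre fell in the coding exon of Hps6, 1.39 kb from the Hps6 start, and 5 other protein-coding genes started within 100 kb of Ldb1. The nearest E9.5 peak was 508.34 kb upstream (chr19:46627619-46628472, score 58.83, rank 879), in the neighbourhood of Arl3.

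For Ldb2 (chr5:44863372-45190946, minus strand), a gene of 327.58 kb, no peak touched the gene body. Its nearest peaks lay 573.0 kb (E9.5, chr5:44617130-44618770, score 57.89, rank 959) and 573.22 kb (E10.5, chr5:44616834-44618608, score 86.71, rank 890) downstream of the 5′ end. They overlapped each other at the promoter of Tapt1. For Lmo4 (chr3:143851494-143868184, minus strand), the nearest E10.5 peak was 248.64 kb downstream, with a low score of 40.57 and rank 5810. The nearest E9.5 peak was 514.87 kb upstream at the start of Sh3glb1 (chr3:144382055-144384059), with a score of 221.2 and rank 46 of 2073.

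The member peaks nearest to the distance limit from inside were the Ldb1 peak at 40.34 kb and the farthest Lmx1b peak at 50.06 kb. The first ones outside it were E10.5 peaks 126.36 kb downstream of the 5′ end of Lmx1b (score 55.66, rank 3872, nearest to Zbtb43) and 127.79 kb downstream of that of Lhx2 (score 37.06, rank 6017, nearest to Nek6). No member peak thus lay near the limit of 100 kb.

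**Figure D3:**
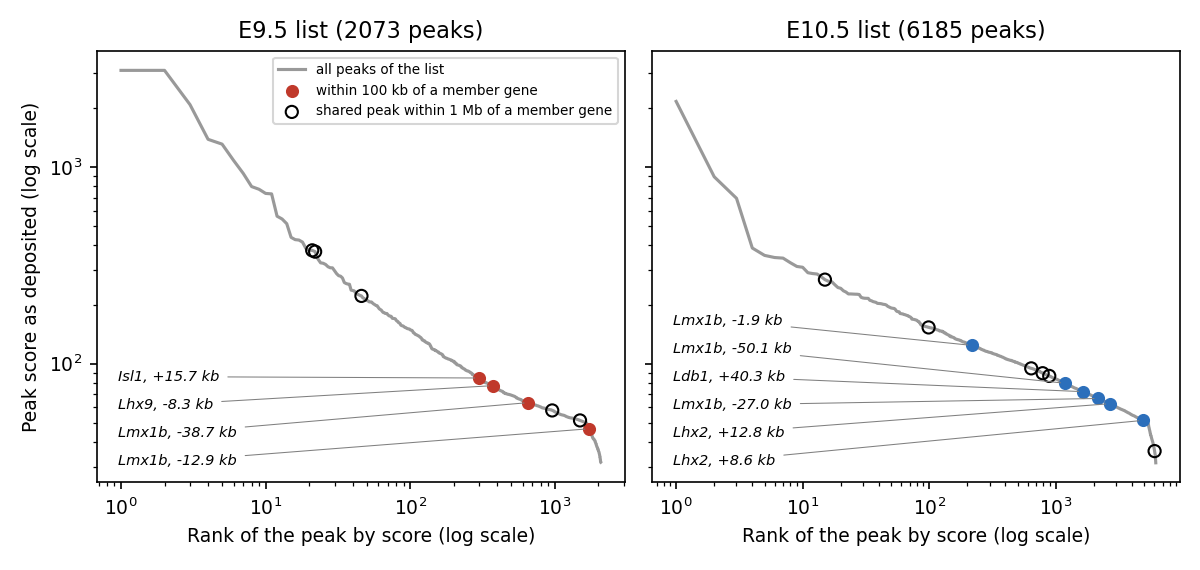
Deposited peak score against rank within each list, both on log scales, for the E9.5 list (left) and the E10.5 list (right); the grey line is the whole list. Filled points are the 10 peaks within 100 kb of the 7 genes, labelled with gene and distance, and open circles are peaks within 1 Mb that overlap a peak of the other stage; the filled points start at rank 298 at E9.5 and rank 217 at E10.5, below the best-scored open circles.

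In the plot of score against rank, the 4 E9.5 peaks ranked between 298 and 1722 and the 6 E10.5 peaks between 217 and 4893. The E9.5 scores ranged from 46.71 to 84.63 with a median of 70.4, and 3 of 4 were above the median of the list. The E10.5 scores ranged from 51.52 to 123.99 with a median of 69.4, and 5 of 6 were above the median of the list. At E10.5 all 6 were wider than the median of their list, and at E9.5 it was 2 of 4. In relation to transcripts, 2 of 4 centres at E9.5 (list 30.7%) and 3 of 6 at E10.5 (list 47.4%) lay within 2.5 kb of an annotated start of some gene. More than 5 kb from any start lay 2 of 4 (list 63.8%) and 2 of 6 (list 46.4%), and counts this small do not set the members apart. The member gene was the nearest protein-coding gene for 8 of the 10 peaks, the exceptions being the peaks assigned to Lhx9 and Ldb1. That count follows in part from choosing peaks near these genes and has no counterpart over the lists.

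Between the stages, an overlap of 1 bp or more was found for 0 of 4 member peaks from E9.5 and for 0 of 6 from E10.5. With 3 taken as the upper limit for a count of 0, the share could be up to 75% of 4 and 50% of 6, for counting error only. This limit is rough for totals this small. It also treats the peaks as independent, although 5 of the 10 lie at Lmx1b. The shares over the whole lists, 18.7% and 6.26%, were low as well. The distance from a member peak to the nearest peak of the other stage was 5.52 to 6.18 kb at Lmx1b. It was 468.83 kb or more at Lhx2, Lhx9, Isl1 and Ldb1, with a maximum of 955.64 kb at Lhx9.

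All 5 sequences searched were counted on both strands in the 300 bp around each centre; GTCTAGAC, GGCGCC and TAATTA, the core bound by many homeodomain proteins, read the same on either strand. The SMAD box CAGAC stood in 3 of 4 member windows from E9.5 (list 60.6%) and in 3 of 6 from E10.5 (list 53.2%). CAGACC was present in 2 of 4 (list 21.0%) and 2 of 6 (list 19.7%). GGCGCC was found at Lhx9 among the E9.5 windows (list 12.6%) and at the second Lhx2 peak among the E10.5 windows (list 13.1%). GTCTAGAC occurred at Isl1 and in none of the 6 E10.5 windows, where the list share was 0.42%. TAATTA was in none of the 10 windows, beside 2.94% and 2.83% of the lists. The E10.5 windows without a SMAD box were those of the first Lhx2 peak and of the Lmx1b peaks at 1.93 and 27.04 kb upstream.

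Counted over whole peaks, the SMAD box was present at all 6 E10.5 peaks, between 7 copies at the first Lhx2 peak and 24 at the Lmx1b peak 27.04 kb upstream. It was present in 98.2% of all E10.5 peaks and 94.0% of all E9.5 peaks, so that its presence in a whole peak does not set the members apart. The median density was 2.57 boxes per kb over the 4 earlier member peaks (list 2.87) and 2.70 per kb over the 6 later ones (list 2.74). A match describes the sequence and does not show a bound site.

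Every peak within 1 Mb of the 5′ ends was also counted, without a rule on open chromatin or on the nearest gene. At this distance all 7 genes had peaks at both stages. With each stage counted alone, 78.4% (E9.5) and 91.3% (E10.5) of protein-coding genes had a peak. There were 18 E9.5 and 42 E10.5 peaks, among them the 10 described above. Lmx1b again had the most, 7 at E9.5 and 19 at E10.5. As many or more were found at 2.49% and 8.67% of protein-coding genes. Lhx2 had 3 and 8 peaks, Lhx9 had 4 and 1, Ldb1 had 1 and 7, Isl1 had 1 and 2, Lmo4 had 1 and 4, and Ldb2 had 1 at each stage. Protein-coding genes had medians of 2 (E9.5) and 7 (E10.5). Some of these peaks lay at the starts of other protein-coding genes, among them Tapt1, Sh3glb1 and Parp8, but their number was not compared with the lists.

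Peaks shared by both stages lay within 1 Mb of 5 of the 7 genes, namely Lhx2, Lhx9, Lmx1b, Ldb2 and Lmo4, beside 34.4% of protein-coding genes. They made up 5 of 18 peaks (27.8%) in the earlier list and 6 of 42 (14.3%) in the later, beside 18.7% and 6.26% of all peaks of these lists. The E9.5 peak downstream of Lhx2 (chr2:38678318-38679930, 484.32 kb from the 5′ end) scored 371.31, with rank 22 of 2073. It overlapped E10.5 peaks on its left side (chr2:38678240-38679070, score 35.97, rank 6055) by 753 bp and on its right side (chr2:38679116-38680163, score 152.96, rank 99) by 815 bp, with 45 bp between them. The site lay in an intron of Nr6a1, and the 5′ ends of Nek6, Psmb7 and Nr5a1 were located between it and Lhx2. The nearest transcript start of any kind was that of Gm13507, annotated as a processed transcript, 0.26 kb from the centre of the E9.5 peak. The nearest protein-coding start was that of Nr6a1, so distance alone does not tie this site to Lhx2.

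Downstream of Lhx9, a shared pair scored higher still within its lists. The E9.5 peak (chr1:139796318-139797316) was 948.34 kb from the 5′ end of Lhx9, with a score of 377.12 and rank 21. Its E10.5 partner (chr1:139796256-139797581) scored 267.66 and had rank 15 of 6185, and both were closest to A130050O07Rik among protein-coding genes. The shared pair upstream of Lmx1b was modest, with scores of 51.5 (rank 1493, E9.5, chr2:33945931-33946661) and 89.52 (rank 789, E10.5, chr2:33946031-33948517) about 450.26 kb from the 5′ end. Its nearest protein-coding gene was Pbx3 by the start of any transcript and Fam125b by the 5′ end of the gene record. The Lmo4 pair at Sh3glb1 had an E10.5 partner with a score of 94.73 and rank 641.

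**Figure D4:**
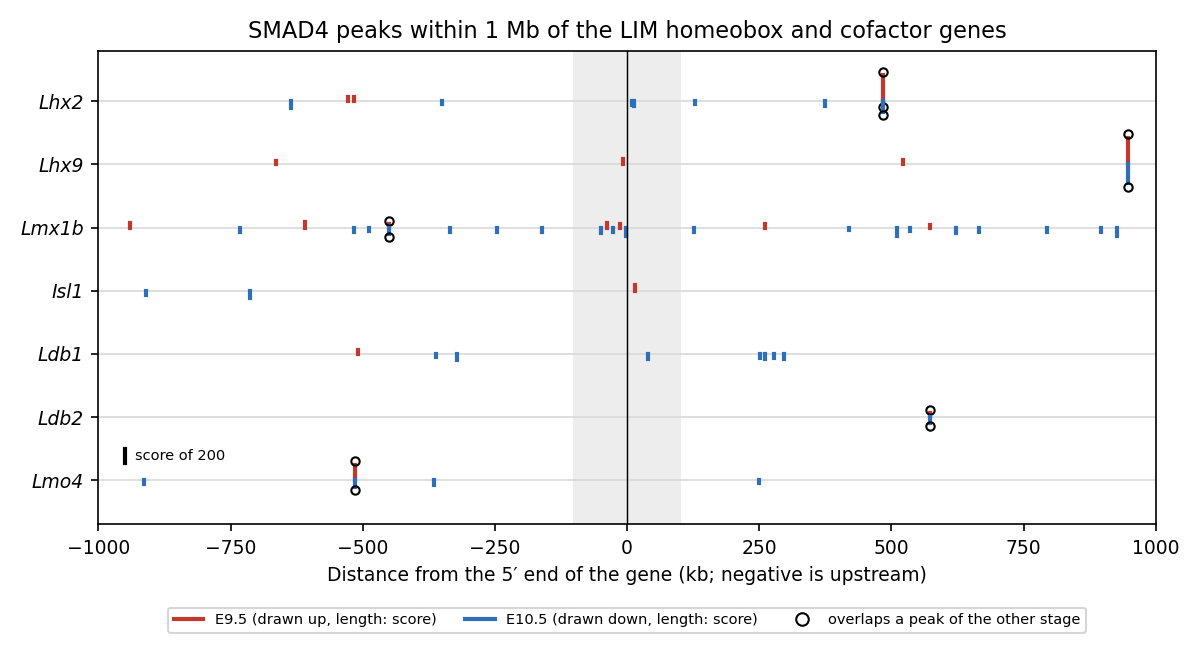
All SMAD4 peaks within 1 Mb of the 5′ ends of the 7 genes by distance in kb, upstream negative; red lines drawn up are E9.5 peaks and blue lines drawn down E10.5 peaks, with length proportional to score (black scale line, score of 200) and open circles at peaks overlapping the other stage. The grey band marks 100 kb to either side, and no shared peak lies in it; the longest lines stand downstream of Lhx2 and Lhx9, at 484.32 and 948.34 kb.

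As context, 15 other LIM genes and LDB cofactor genes were counted in the same way, together with the dorsoventral limb genes Wnt7a and En1, which act with Lmx1b and belong to neither group. At least 1 E9.5 peak lay within 100 kb of 7 of the 17 (41.2%) and at least 1 E10.5 peak near 13 of the 17 (76.5%), beside the 20.5% and 52.9% of all protein-coding genes. Without Wnt7a and En1 the counts were 6 and 12 of 15 (40.0% and 80.0%). Of the LIM homeobox genes Lhx1, Lhx3, Lhx4, Lhx5, Lhx6, Lhx8, Isl2 and Lmx1a, 3 of 8 had an E9.5 and 6 of 8 an E10.5 peak. Of the LIM-only genes Lmo1, Lmo2 and Lmo3 these counts were 1 and 2 of 3. Of Ssbp2, Ssbp3, Ssbp4 and Rlim, whose products bind or modify LDB complexes, they were 2 and 4 of 4. Peaks at both stages were found for 7 of the 17, and 4 of the 17 (Lhx4, Isl2, Lmo3 and Wnt7a) had none at either, beside 14.7% and 41.2% of protein-coding genes. Within 1 Mb, Ssbp4 had 6 E9.5 and 24 E10.5 peaks, beside 7 and 19 at Lmx1b. Lhx1 with 9 E9.5 peaks and Lhx3 with 22 E10.5 peaks also had more than Lmx1b at those stages. The rest of the 17 genes had fewer than Lmx1b at both stages.

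These 17 genes had 10 peaks in the earlier and 22 in the later list, of which 2 at each stage were shared, at Ssbp2 and Ssbp4. The best-scored E10.5 peak was the one at the Ssbp2 promoter (chr13:91599539-91602152, score 154.0, rank 96), 0.96 kb from the 5′ end, which overlapped an E9.5 peak with a score of 75.27. Ssbp2 encodes a single-stranded DNA-binding protein that joins LDB1. The best-scored E9.5 peak lay 40.72 kb upstream of Ssbp4 and nearest to Pgpep1 (chr8:73168853-73177015, score 174.71, rank 72). Wnt7a, the ectodermal signal that induces Lmx1b, had its nearest E10.5 peak 109.8 kb from the 5′ end. En1, which restricts Wnt7a to the dorsal ectoderm, had an E9.5 peak 20.44 kb upstream (score 51.6) and an E10.5 peak 11.94 kb downstream of the 5′ end (score 66.91), which did not overlap.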

How the data were processed

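The 8 samples (SMAD4 ChIP-seq or input DNA, 4 groups of 2) were grouped by stage and kind from their titles. The authors trimmed reads with the FASTX-Toolkit, aligned them to mm9 with Bowtie and called peaks with MACS against input DNA; the submitters' processing notes name Bowtie 1.1.0 and MACS 1.4. They combined the replicates of a stage with MSPC and kept only replicated peaks, so regions found in 1 replicate alone were left out. The deposited lists give position and a score per peak, which per the methods is the best MACS p-value among the overlapping calls of the replicates, so it reflects the better replicate. The unit is not named in the lists. The values resemble that p-value on a log scale. Since read depth is unknown, the score was ranked within a list, apart from the uses of raw scores named above. Input libraries served in peak calling only.

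Peaks were placed relative to GENCODE vM1 genes on mm9 (NCBIM37) with 1-based coordinates, using Python 3.11.15, NumPy 2.4.6, pandas 2.3.3, pysam 0.24.0 and Matplotlib 3.10.9. The background was 22350 protein-coding genes on chromosomes 1 to 19 and X. An overlap of 1 bp or more counted as shared. The nearest protein-coding gene was taken by the start of any of its transcripts. No peak was removed, and the counting functions were tested on simulated data. All 7 genes with all their peaks within 100 kb were named, the nearest peak where there was none, and the best-scored peak per stage of the other family list. Single shared pairs within 1 Mb were named after their values were seen. The members and lists were chosen with earlier results of these data known. Alternatives changed the distance, the gene start, the list, the definition of overlap and the motif window.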

Additional observations from a re-analysis of the deposited data

How the results depend on the processing

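Of the alternative values computed, 37 stayed within the limit set for the main value and 18 moved. That limit was wide enough to pass changes from 13 to 9 and from 3 to 2. The 37 also include the 4 overlap alternatives described below, so the tally is no measure of stability. Widening the distance from 100 kb to 1 Mb raised the member peaks from 4 to 18 at E9.5 and from 6 to 42 at E10.5, and the genes with a peak from 3 to 7 at either stage. At 250 kb the E10.5 peaks numbered 11. With scores of 100 or more only, 0 peaks and 0 genes were left at E9.5, and 1 peak at 1 gene (Lmx1b) at E10.5. With the E10.5 list shortened to the length of the E9.5 list, 3 of the 6 E10.5 peaks were left, at 2 genes (Lmx1b and Ldb1). Both Lhx2 peaks and the Lmx1b peak 27.04 kb upstream were lost. The 4 alternatives for the count of 0 shared peaks could not give another value, since each is stricter than an overlap of 1 bp or asks for centres closer than the smallest gap of 5.52 kb, and they are no check of it. Searching whole peaks raised the E10.5 peaks with a SMAD box from 3 to 6. For the 17 other genes, alternatives, and the count without Wnt7a and En1, were added after seeing the data. The E9.5 count of 7 became 11 at 250 kb, 16 at 1 Mb, 1 with scores of 100 or more and 4 in the better-scored 50% of the list. The E10.5 count of 13 became 1, 7 in the better-scored 50% and 4 in the shortened list. No paired analysis was possible because both replicates of a stage were combined in 1 list, and for the same reason no replicate could be left out. Depth is unknown, so the longer E10.5 list and its wider peaks describe the list.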
